A study of Mus musculus with 10 samples.

Results

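The Cdx genes, the vertebrate relatives of the fly gene caudal, were followed as RNA through a culture course from mouse embryonic stem cells towards neuromesodermal progenitors. The genes are Cdx1, Cdx2 and Cdx4, taken by symbol from the deposited count table, where they make up 3 of 52459 symbols, and all 3 passed the low-count filter that left 18818 genes for testing. Cells of the line ES-Bruce4 (C57BL/6) were depleted of feeder fibroblasts, held in N2B27 medium with basic Fgf (10 ng/ml) from the start, and given the Wnt pathway activator CHIR99021 (5 µM) from day 2. Libraries came from day 2 (D2, called epiblast stem cell in the labels), day 3 (D3), day 6 (D6), day 7 with Gdf11 (D7G, 50 ng/ml for 24 h from day 6) and day 7 without it (D7), the later 4 all labelled neuromesodermal progenitor. Each group had 2 libraries of 31078950 to 33418015 gene counts, all from wild-type cells of 1 line. Whether replicates were grown as separate cultures is not stated, so the p-values below measure the spread between libraries, which may be technical.

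Cdx proteins are homeodomain transcription factors of the posterior embryo. In mouse embryos Wnt, Fgf and retinoic acid signals feed into their expression in the primitive streak and tail bud. They in turn act on central Hox genes and on genes that keep the posterior growth zone active. The paralogues overlap in function in axial elongation, and Cdx2 also acts in trophectoderm and, with Cdx1, in the intestinal epithelium. Gdf11 belongs to the Tgf-β ligands and acts in the embryo around the passage from trunk to tail.

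Because the 3 genes moved together on D3, the stretches just before their starts are shown for the genes with a RefSeq promoter entry, Cdx2 and Cdx4 (2 of 3). The sequences are those of RefSeq on GRCm38.p6, written 5′ to 3′ on the strand of the gene and ending at the base before the gene start in the count table. The Cdx2 stretch is chr5:147307271-147307499 (minus strand, 229 bases) and the Cdx4 stretch chrX:103321148-103321397 (plus strand, 250 bases). Capitals mark matches to the motifs described after the sequences.
Cdx2: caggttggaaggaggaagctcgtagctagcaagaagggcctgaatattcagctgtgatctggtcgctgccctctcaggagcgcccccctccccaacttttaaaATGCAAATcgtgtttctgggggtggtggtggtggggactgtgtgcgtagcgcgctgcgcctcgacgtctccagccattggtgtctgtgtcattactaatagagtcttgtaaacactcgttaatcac
Cdx4: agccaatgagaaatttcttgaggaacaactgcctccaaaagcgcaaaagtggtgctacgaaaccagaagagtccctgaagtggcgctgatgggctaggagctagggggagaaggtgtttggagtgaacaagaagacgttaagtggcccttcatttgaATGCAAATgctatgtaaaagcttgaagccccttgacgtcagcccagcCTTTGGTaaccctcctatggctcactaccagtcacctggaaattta

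Both stretches hold the octamer ATGCAAAT, the classic motif of POU factors, on the strand of the gene. It lies 126 to 119 bases before the start in Cdx2 and 93 to 86 bases before it in Cdx4. This motif was chosen after the sequences were seen. It occurs on either strand in 1.6% of 32851 promoters over the 250 bases before the start. The pattern searched for Tcf/Lef factors was CTTTGNT, where N allows any base. It matched once, in Cdx4 as CTTTGGT with G at the free position, and is present in 16.0% of promoters. Neither stretch holds the Cdx motif TTTATG (10.8% of promoters) or the nuclear receptor motif AGGTCA (14.0%) on either strand. The matches do not overlap each other, and a match is a stretch of letters, not evidence of binding.

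On mm10, Cdx1 lies on chromosome 18 (chr18:61018862-61036199, minus strand), Cdx2 on chromosome 5 (chr5:147300805-147307270, minus strand) and Cdx4 on chromosome X (chrX:103321398-103330592, plus strand). These spans are equal to those of GENCODE vM21 on GRCm38. The genes cover 17338, 6466 and 9195 bases. Although the spans differ, the count table gives each paralogue 3 exons with a middle exon of 146 bases in all 3 genes. The first exons had 524, 826 and 658 bases and the last 1080, 1289 and 1159 bases in the order Cdx1, Cdx2 and Cdx4. No other gene of the table overlapped any of them.

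Cdx1 had 0.819 and 0.428 CPM (counts relative to library size, with TMM scaling) on D2, 151 and 155 on D3, and 72.7 and 85.4 on D6. On day 7 it had 38.6 and 39.9 CPM in D7G, against 37.4 and 35.1 CPM in D7. Its level was highest on D3 in both libraries, and the D7G libraries lay just above the D7 libraries. The D6 libraries stood further apart for Cdx1 than for its paralogues.

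Cdx2 had 0.589 and 0.593 CPM on D2, 154 and 154 on D3, and 109 and 113 on D6. On day 7 it had 24.7 and 25.3 CPM in D7G, against 43.1 and 40.7 CPM in D7. No library of any group overlapped with another group for this gene.

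Cdx4 had 3.14 and 3.33 CPM on D2, 93.4 and 96.0 on D3, and 69.1 and 68.0 on D6. On day 7 it had 13.1 and 13.9 CPM in D7G, against 38.1 and 38.8 CPM in D7. Its groups did not overlap either, and it was the only one of the 3 with more than 25 counts in a D2 library. The D2 libraries held 25 and 13 counts of Cdx1, with 95% Poisson intervals of 16.2 to 36.9 and 6.92 to 22.2. They held 18 and 18 counts of Cdx2 (10.7 to 28.4 each), against 96 and 101 of Cdx4 (77.8 to 117 and 82.3 to 123). These intervals cover counting error only.

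**Figure D1:**
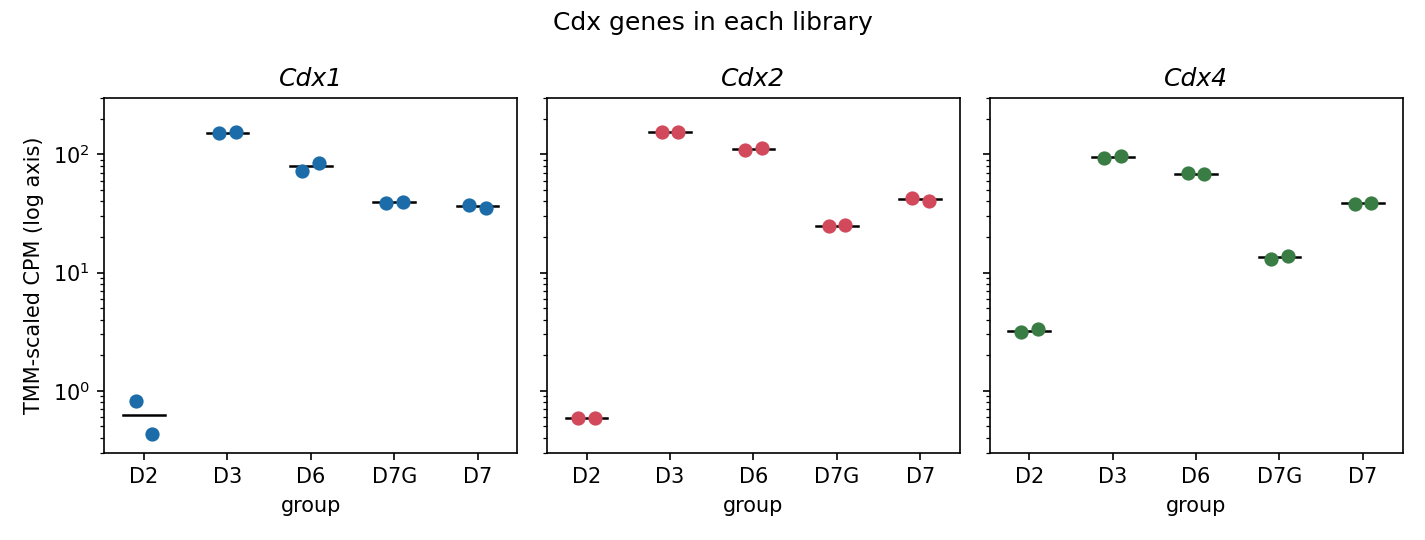
TMM-scaled CPM (log axis) of Cdx1, Cdx2 and Cdx4 in the 2 libraries of each group; points are libraries and bars are group means. All 3 genes stand highest on D3, and on day 7 Cdx1 has 39.2 CPM in D7G against 36.3 in D7, while Cdx4 has 13.5 against 38.4.

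To set the paralogues side by side, counts were divided by exon length and scaled to the same total in each library (TPM). In the second deposited table the levels were 1.07 to 1.16 times these values, and TMM-scaled RPKM, another scale, were 0.312 to 0.330 times them. The order of the group means was the same under both in all 5 groups. On D2 Cdx4 led with 5.00 ± 0.195 TPM (SD, n = 2 here and below), above Cdx1 (1.08 ± 0.480) and Cdx2 (0.794 ± 0.00249). The ranges of Cdx1 and Cdx2 overlapped on that day. On D3 the order was Cdx1 (278 ± 4.91 TPM), Cdx2 (216 ± 0.298) and Cdx4 (153 ± 2.77), with no overlap. These levels placed Cdx1 at ranks 517 and 539 of all genes by TPM on D3, Cdx2 at 739 and 741, and Cdx4 at 1133 and 1156. On D6 Cdx2 (149 ± 4.65 TPM) and Cdx1 (137 ± 16.3) overlapped, above Cdx4 (106 ± 0.577).

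The order differed again on day 7. In D7G Cdx1 stood at 71.8 ± 1.63 TPM, Cdx2 at 35.4 ± 0.562 and Cdx4 at 22.0 ± 0.960, gaps well beyond the spread between libraries. In D7 the 3 genes lay close together, with Cdx1 at 64.6 ± 2.61 TPM, Cdx4 at 61.1 ± 1.05 and Cdx2 at 57.7 ± 2.03. The gaps between neighbours there were 3.54 and 3.34 TPM, little more than the larger SD in each case (2.61 and 2.03).

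Summed over the 3 genes, the level was 6.68 to 7.08 TPM on D2, 642 to 653 on D3 and 378 to 407 on D6. It was 127 to 131 TPM in D7G, against 181 to 186 TPM in D7. The makeup of this sum differed between groups. Cdx4 held 72.9 ± 5.83% of it on D2, 23.7 ± 0.136% on D3 and 27.0 ± 1.55% on D6, and 17.0 ± 0.327% in D7G against 33.3 ± 1.22% in D7. Cdx1 held 15.6 ± 6.34% on D2, 42.9 ± 0.230% on D3 and 34.9 ± 2.35% on D6, and 55.6 ± 0.0935% in D7G against 35.2 ± 0.731% in D7. Cdx2 had a share of 27.4 ± 0.234% in D7G and of 31.5 ± 0.492% in D7, after 38.1 ± 0.796% on D6.

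**Figure D2:**
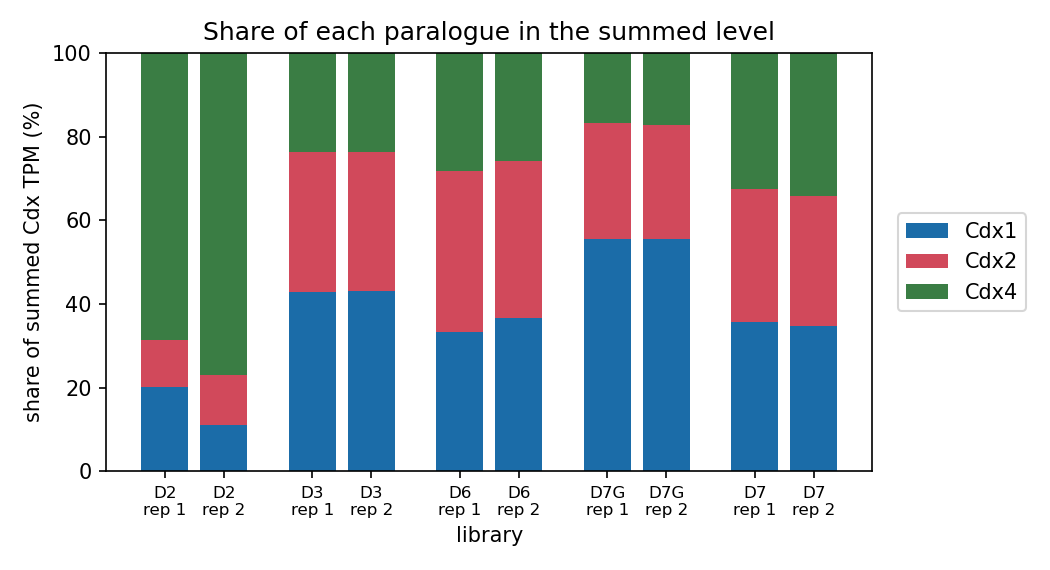
Share of each paralogue in the summed Cdx TPM of each library (%), with 1 stacked bar per library. Cdx4 makes up most of the sum on D2 (72.9%), the 3 genes have near-equal shares in D7, and Cdx1 makes up 55.6% in D7G.

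The comparison of D3 with D2 covers the day after CHIR99021 was added. All 3 Cdx genes rose in the fit across all genes, where 58.5% of tested genes were called, 29.6% higher and 28.9% lower. Cdx2 had a log2 fold change of 8.02 ± 0.09 (SE; 259-fold; adjusted p = 6.50e-23, edgeR quasi-likelihood test with Benjamini-Hochberg adjustment, as below). Cdx1 rose by 7.93 ± 0.13 (adjusted p = 1.39e-20) and Cdx4 by 4.87 ± 0.07 (29.2-fold; adjusted p = 4.56e-21). Among the log2 fold changes of 18818 genes Cdx2 ranked 12, Cdx1 15 and Cdx4 69 from the top. Cdx4 had the highest D2 level and the lowest D3 level of the 3.

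From D3 on, the genes declined at unequal rates. In D6 against D3 all 3 fell, where 65.7% of tested genes were called, 32.4% higher and 33.3% lower. Cdx1 fell by 0.95 ± 0.06 on the log2 scale (adjusted p = 2.69e-11). Cdx2 and Cdx4 fell by less, by 0.47 ± 0.04 (adjusted p = 4.06e-09) and 0.47 ± 0.05 (adjusted p = 2.12e-08). The D6 level per length was 49.4% of the D3 level for Cdx1, 69.1% for Cdx2 and 69.2% for Cdx4.

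Over the last day without Gdf11, D7 against D6, all 3 fell again, where 36% of tested genes were called, 20.5% higher and 15.6% lower. The balance of these calls turned to more lower than higher in 9 of 18 alternatives, and without D7 replicate 2 the number called higher was 2294 in place of 3853. The falls of the 3 Cdx genes passed in all 18. Here Cdx2 changed most (-1.41 ± 0.05, adjusted p = 5.56e-14), followed by Cdx1 (-1.12 ± 0.07, adjusted p = 3.05e-10) and Cdx4 (-0.83 ± 0.05, adjusted p = 2.54e-10). Fewer than 1% of tested genes lay below Cdx2 (0.553%) or Cdx1 (0.983%) in this comparison. In bulk RNA a smaller share of Cdx-expressing cells and less Cdx RNA per cell cannot be told apart.

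With Gdf11 the paralogues parted. Cdx4 fell to 13.5 ± 0.605 CPM in D7G, against 38.4 ± 0.468 CPM in D7 (log2 fold change -1.51 ± 0.06, 2.85-fold lower, adjusted p = 9.63e-14). Cdx2 fell to 24.98 ± 0.427 CPM in D7G, against 41.9 ± 1.68 CPM in D7 (-0.75 ± 0.05, 1.68-fold lower, adjusted p = 6.02e-10). Cdx1 had 39.2 ± 0.939 CPM in D7G and 36.3 ± 1.64 CPM in D7, and its log2 fold change of 0.11 ± 0.07 did not pass (adjusted p = 0.223, 95% interval -0.035 to 0.26). Of all tested genes 40.7% were called, 22.5% higher and 18.2% lower. Only 0.425% of tested genes lay below Cdx4.

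Gdf11 was added on D6, so D7G can also be set against that starting point, with the D7G libraries shared with the preceding comparison. All 3 genes fell, where 52.8% of tested genes were called, 30.6% higher and 22.2% lower. The log2 fold changes were -1.01 ± 0.07 for Cdx1 (adjusted p = 1.31e-10), -2.16 ± 0.05 for Cdx2 (adjusted p = 2.37e-17) and -2.34 ± 0.06 for Cdx4 (adjusted p = 5.23e-17). Set against D3, the D7G level per length was 25.8% for Cdx1, 16.3% for Cdx2 and 14.4% for Cdx4. The same shares in D7 were 23.2% for Cdx1, 26.7% for Cdx2 and 39.9% for Cdx4.

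**Figure D3:**
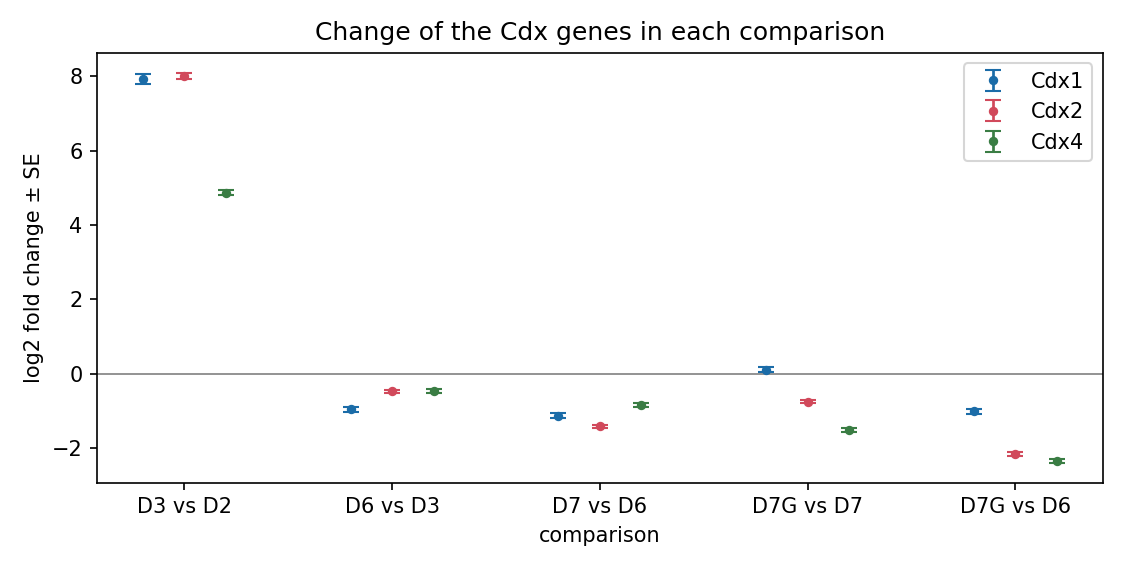
Log2 fold change ± SE of each Cdx gene in 5 comparisons, from the edgeR fit of all 10 libraries. The largest values are those of Cdx2 (8.02) and Cdx1 (7.93) in D3 against D2, and in D7G against D7 the 3 genes spread from 0.11 (Cdx1) over -0.75 (Cdx2) to -1.51 (Cdx4).

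In the authors' deposited table, where changes are given against D2, the log2 values in D3 were 7.98 for Cdx1, 8.00 for Cdx2 and 4.88 for Cdx4. The same authors' deposited table lists 5.96 in D7G and 5.87 in D7 for Cdx1. For Cdx2 the authors' deposited table has 5.32 in D7G and 6.08 in D7, and for Cdx4 it has 2.01 in D7G and 3.54 in D7.

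The ratio of 2 paralogues within a library does not depend on scaling between libraries and was used to test whether they moved apart. Each ratio is of counts per kilobase with 0.5 counts added, on the log2 scale. For Cdx1 over Cdx4 it was -1.75 and -2.74 on D2, 0.86 and 0.86 on D3, and 0.24 and 0.49 on D6. It was 1.73 and 1.68 in D7G, against 0.14 and 0.02 in D7. The D7G libraries were thus the highest and the D2 libraries the lowest. An exact permutation test over the 945 ways to divide 10 libraries into 5 groups of 2 gave p = 0.00106. This is the smallest it can give (adjusted p = 0.00317 over the 3 pairs of genes). The test counts the divisions with as little spread within groups as the real one, and has no direction.

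For Cdx2 over Cdx4 the log2 ratio was -2.59 and -2.66 on D2, 0.52 and 0.48 on D3, and 0.46 and 0.53 on D6. It was 0.71 and 0.66 in D7G, against -0.03 and -0.14 in D7. D3 and D6 overlapped, and all other groups stood apart. The exact permutation test gave p = 0.00317 (adjusted p = 0.00476).

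Cdx1 over Cdx2 had log2 ratios of 0.83 and -0.08 on D2, 0.34 and 0.38 on D3, and -0.22 and -0.04 on D6. It was 1.01 and 1.03 in D7G, against 0.17 and 0.16 in D7. Over all 5 groups this did not pass (exact permutation p = 0.115, adjusted p = 0.115), with the D2 libraries, which hold 13 to 25 counts of each gene, spanning most of the range of the others. Without the D2 group (chosen after seeing the data) the exact permutation test over 105 divisions gave p = 0.00952, the smallest possible there (adjusted p = 0.0143). Leaving out only D2 replicate 1 or only D2 replicate 2 gave exact permutation p = 0.00317 and p = 0.00106. For the other pairs without the D2 group, Cdx1 over Cdx4 gave exact permutation p = 0.00952 (adjusted p = 0.0143). Cdx2 over Cdx4 gave exact permutation p = 0.0286 there (adjusted p = 0.0286).

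An exact permutation test of a single step, with 2 against 2 libraries, cannot go below p = 0.333, so single steps are given as values without a test. In D7G against D7 the mean log2 ratio differed by 0.86 for Cdx1 over Cdx2, by 1.62 for Cdx1 over Cdx4 and by 0.77 for Cdx2 over Cdx4 (D7G minus D7). The differences between single libraries ran from 0.85 to 0.87, from 1.54 to 1.70 and from 0.68 to 0.85, so each gap exceeded the spread. In D3 against D2 the ratio of Cdx1 to Cdx2 differed by -0.01 (-0.49 to 0.46 between single libraries), and in D6 against D3 that of Cdx2 to Cdx4 by -0.003 (-0.06 to 0.05).

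**Figure D4:**
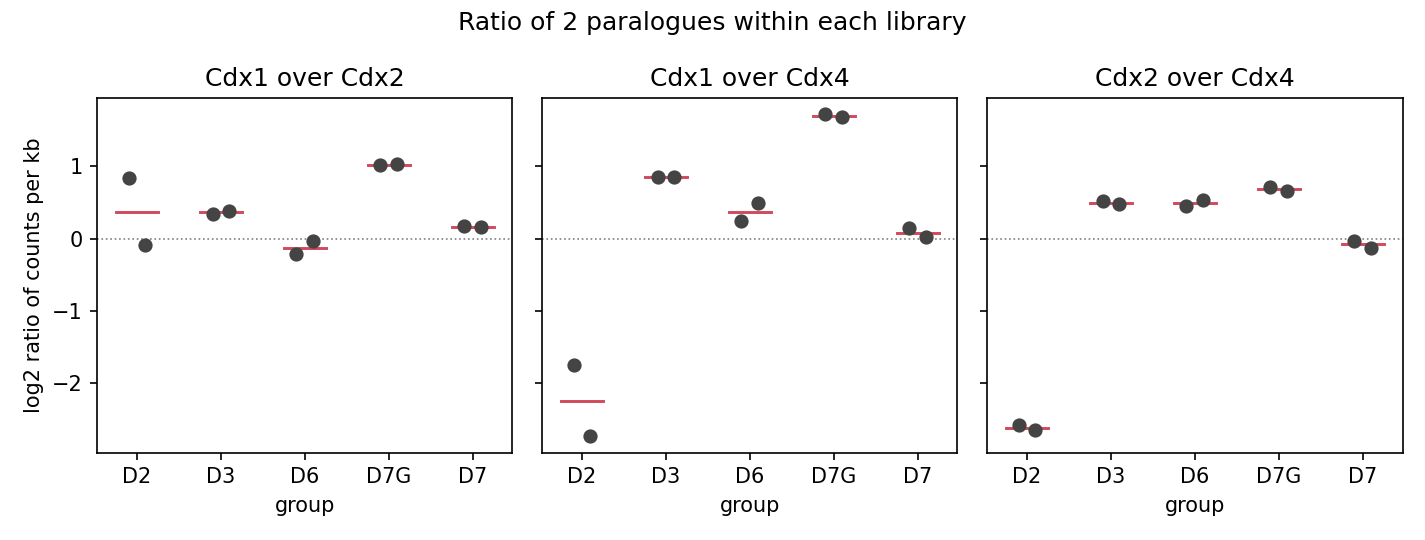
Log2 ratio of counts per kilobase of 2 paralogues within each library, by group; points are libraries, red bars are group means and the dotted line marks equal levels. The D7G libraries have the highest Cdx1 over Cdx4 ratio (1.68 and 1.73), and on D2 both ratios to Cdx4 lie below -1.7.

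Signals that feed into Cdx expression were described through a list of 16 Wnt, Fgf and retinoic acid genes. In D3 against D2, 9 of 16 rose and 6 fell, where 29.6% of all tested genes were called higher and 28.9% lower. Their median log2 fold change was 0.51 (0.00046 over all tested genes). Wnt3a, whose protein signals in the streak, rose to 19.7 ± 0.376 CPM in D3, against 0.0986 ± 0.0468 in D2. Fgf8, the growth factor of the posterior growth zone, rose to 33.4 ± 3.79 CPM in D3, against 1.49 ± 0.308 in D2. Wnt5a rose by 3.09 ± 0.12 on the log2 scale, and Cyp26a1, the enzyme that degrades retinoic acid, by 3.08 ± 0.14. The largest fall of the list was that of Fgf4, an Fgf ligand of the early epiblast, to 26.7 ± 0.800 CPM in D3, against 62.8 ± 1.21 in D2 (-1.24 ± 0.07). Tcf7l1, a Tcf factor that acts mainly as a repressor, had a log2 fold change of -1.16 ± 0.07.

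In D6 against D3, 4 of the 16 rose and 8 fell (median -0.12, against -0.0069 over all tested genes). With 65.7% of all tested genes called in this step, 32.4% higher and 33.3% lower, the number called was near the background. Wnt3a fell to 0.597 ± 0.206 CPM in D6, against 19.7 ± 0.376 in D3 (log2 fold change -5.03 ± 0.17). Wnt8a (-2.72 ± 0.07) and Fgf8 (-1.49 ± 0.09) fell too, whereas Rarb, a retinoic acid receptor that is itself induced by retinoic acid, rose by 1.64 ± 0.11. On D6 the Cdx genes stood at 49.4 to 69.2% of their D3 level per length. The protocol gave CHIR99021 from day 2 and basic Fgf from the start. The part of the listed genes in the Cdx levels was not tested.

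In D7 against D6, 3 members rose and 5 fell, where 20.5% of all tested genes were called higher and 15.6% lower (median -0.05, against 0.04 over all tested genes). Rarb rose by 1.09 ± 0.09 and Cyp26a1 by 0.83 ± 0.10, and Wnt5a (-0.85 ± 0.08) and Wnt8a (-0.57 ± 0.10) fell. In D7G against D7, 9 rose and 4 fell, where 22.5% of all tested genes were called higher and 18.2% lower (median 0.19, against 0.02 over all tested genes). Wnt5a rose to 25.3 ± 2.50 CPM in D7G, against 11.6 ± 0.670 in D7, and Cyp26a1 rose to 36.0 ± 6.37 CPM in D7G, against 24.6 ± 1.14 in D7. Fgf8 (-0.89 ± 0.12) and Aldh1a2, a retinoic acid producing enzyme (-0.56 ± 0.09), fell. The medium contained B27 with or without vitamin A and the labels do not say which; its part in the retinoic acid genes was not tested.

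A second list held 9 genes reported to depend on Cdx factors in mouse embryos. Wnt3a and Cyp26a1 are in the first list too. In D3 against D2 all 9 rose, where 29.6% of all tested genes were called higher (median 5.55, against 0.00046 over all tested genes). T (Brachyury), a T-box regulator of mesoderm formation, had a log2 fold change of 7.97 ± 0.08, and the trunk Hox genes Hoxc8 and Hoxb9 had 6.35 ± 0.19 and 5.65 ± 0.13. In D6 against D3, when all 3 Cdx genes fell, 6 rose and 3 fell, where 32.4% of all tested genes were called higher and 33.3% lower (median 0.93, against -0.0069). Pax3, a paired-box factor of dorsal neural tube and somite, rose to 41.3 ± 6.54 CPM in D6, against 7.87 ± 0.211 in D3. Hoxa7 rose to 47.6 ± 2.63 CPM in D6, against 10.6 ± 0.385 in D3. T (-2.47 ± 0.05), Wnt3a and Cyp26a1 (-0.54 ± 0.10) fell.

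In D7 against D6, 2 of these 9 rose and 4 fell, where 20.5% of all tested genes were called higher and 15.6% lower (median -0.18, against 0.04). The rises were 4 with scaling by library totals and 1 in the second deposited table. Cyp26a1 and Pax3 (0.40 ± 0.07) rose, while T (-1.08 ± 0.06) and Hoxa7 (-0.38 ± 0.06) fell. In D7G against D7, 5 rose and 2 fell, where 22.5% of all tested genes were called higher and 18.2% lower (median 0.20, against 0.02). T rose to 29.3 ± 0.269 CPM in D7G, against 19.8 ± 0.676 in D7, and Hoxc8 to 50.8 ± 6.21 CPM in D7G, against 36.6 ± 0.962 in D7. Hoxb9 fell to 147 ± 15.9 CPM in D7G, against 209 ± 14.2 in D7. Only 3 rose without D7G replicate 2 or in the second table, and 1 fell with DESeq2 or without D7 replicate 1, D7 replicate 2 or D7G replicate 1.

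**Figure D5:**
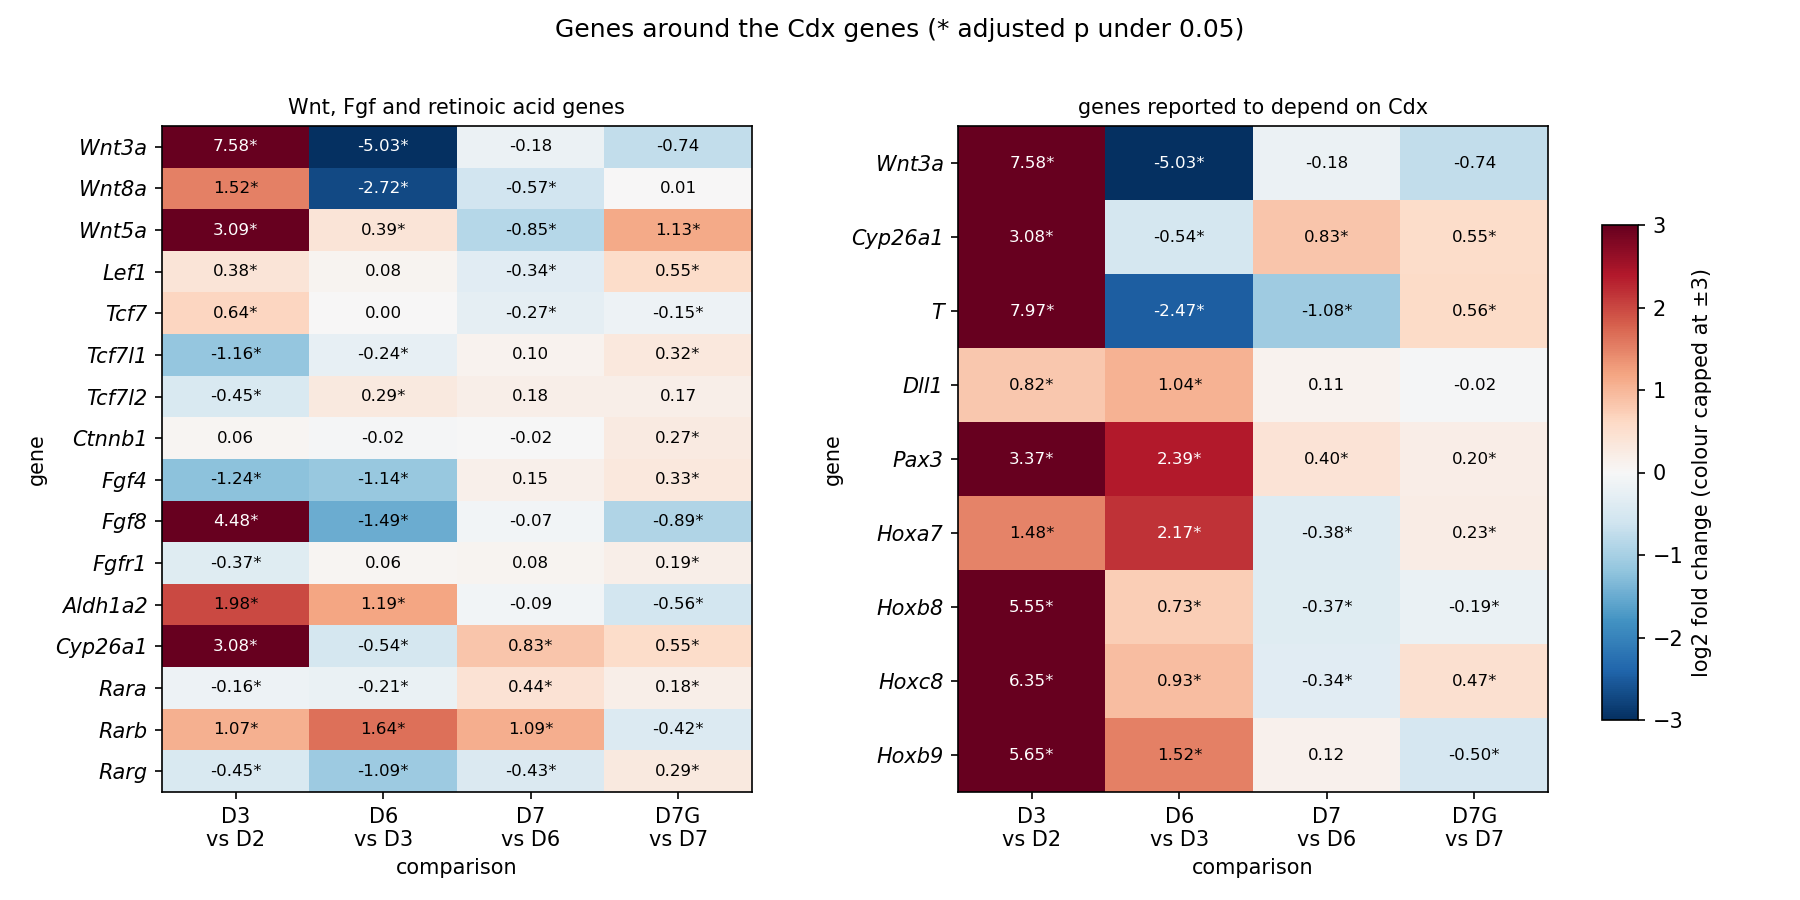
Log2 fold changes of the 16 Wnt, Fgf and retinoic acid genes and of the 9 genes reported to depend on Cdx, in 4 comparisons; colour is capped at ±3 and an asterisk marks an adjusted p under 0.05 (edgeR). All 9 of the second list rise in D3 against D2, and Wnt3a falls in D6 against D3 (-5.03) while Hoxa7 and Pax3 rise.

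Of 12 caudal epiblast and NMP genes, 11 rose in D3 against D2 (median 3.78), where 29.6% of all tested genes were called higher. T, Wnt3a, Wnt8a, Fgf8 and Cyp26a1 of these are also in the lists above, so the counts of the lists are not separate observations. In D6 against D3, 1 rose and 11 fell (median -1.20), where 32.4% of all tested genes were called higher and 33.3% lower. In D7 against D6, 2 rose and 8 fell (median -0.60), against 20.5% and 15.6% of all tested genes. In D7G against D7, 5 rose and 4 fell (median 0.02, as over all tested genes), against 22.5% and 18.2% of all tested genes. The last count of rises was 3 without D7 replicate 2 or D7G replicate 2. Sp8 (-0.97 ± 0.09) and Nkx1-2 (-0.68 ± 0.06), whose product marks the NMP region, fell with Gdf11 as Cdx2 and Cdx4 did. Evx1, a homeobox factor of the streak, rose to 14.4 ± 1.84 CPM in D7G, against 3.81 ± 0.492 in D7.

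Likeness of pattern was measured as Pearson's r of log2(CPM + 1) over the 10 libraries, among 11598 genes with at least 5 CPM in a group. These values are descriptions, since replicates and neighbouring days share much of their expression. Cdx1 and Cdx2 had r = 0.987, with 5 other genes closer to Cdx1 than Cdx2 was. Cdx2 and Cdx4 had r = 0.973, and Cdx1 and Cdx4 r = 0.931. The closest pair depended on the measure. By Spearman's rho, which uses ranks, it was Cdx2 and Cdx4 (0.976). Cdx1 and Cdx2 had a rho of 0.891, and Cdx1 and Cdx4 of 0.867. By Pearson's r, the closest to Cdx1 were Dolk (0.996), Sp5 (0.996), Scap (0.991), Mum1l1 (0.989) and Sgta (0.989). Sp5, a transcription factor induced by Wnt signalling, had 83.6 ± 8.16 CPM on D3, 35.6 ± 3.56 on D6, and 26.8 ± 2.49 in D7G against 22.3 ± 0.715 in D7.

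Closest to Cdx2 were Nsmaf (0.991), Dusp14 (0.987), Tusc2 (0.986), Spata7 (0.986) and Cuta (0.984). Their levels varied far less than that of Cdx2, as Pearson's r takes no account of amplitude. Nsmaf, for example, had 99.3 ± 3.01 CPM on D3, against 63.0 ± 0.513 on D2. Close to Cdx4 were Dusp4 (0.987), Dusp14 (0.985), Tusc2 (0.983) and Nkx1-2 (0.981). Dusp4 and Dusp14 encode dual-specificity phosphatases. Nkx1-2 had 3.45 ± 0.125 CPM on D2, 235 ± 0.656 on D3 and 117 ± 4.85 on D6, and 24.8 ± 1.95 in D7G against 39.9 ± 2.54 in D7.

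Within 100 kb of a Cdx gene lay 27 other entries of the table, of which 11 were tested. Urad, whose product acts in purine breakdown, lies 7.71 kb from Cdx2 on the same strand. It had 0 and 0 counts on D2, 40 and 55 on D3, and 34 and 40 on D6, and 6 and 9 in D7G against 27 and 23 in D7. Its level in D3 was at least 29.6-fold higher than in D2, taking a floor of 3 counts over the D2 group. It fell in D7G against D7 (log2 fold change -1.66 ± 0.40, adjusted p = 2.30e-03), like Cdx2 but at levels under 2 CPM.

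Next to Cdx1, at 4.66 kb on the same strand, Slc6a7, a proline transporter gene, had 154 and 140 counts on D3, against 11 and 12 on D2 (log2 fold change 3.57 ± 0.30). It rose in D7G against D7 (0.53 ± 0.19, adjusted p = 0.0292), where Cdx1 did not pass. Pdgfrb, a growth factor receptor gene of mesenchyme at 8.95 kb on the other strand, rose to 65.4 ± 10.96 CPM in D7G, against 29.9 ± 0.610 in D7. Camk2a, a kinase gene at 30.7 kb on the other strand, fell in the same step (-0.86 ± 0.20, adjusted p = 2.02e-03). Of the 5 tested neighbours of Cdx1, 3 rose and 1 fell in that step. Over all tested genes, 22.5% were called higher and 18.2% lower. The rises include Csf1r, at 0.921 ± 0.149 CPM in D7G, against 0.300 ± 0.041 in D7. Cdx2 and Cdx4 had 3 tested neighbours each, of which 0 rose and 1 fell in D7G against D7. Near Cdx4, Chic1 at 25.9 kb had 48.0 ± 1.03 CPM on D3, against 47.1 ± 2.04 on D2. It did not pass in D3 against D2 (0.03 ± 0.06, adjusted p = 0.728) or in D7 against D6 (-0.13 ± 0.06, adjusted p = 0.119). Chic1 fell in D6 against D3 (-0.30 ± 0.06, adjusted p = 2.48e-04) and in D7G against D7 (-0.23 ± 0.07, adjusted p = 7.65e-03).

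Markers of other cell types were summed in CPM per library to show what else moved with the Cdx genes. The 7 epiblast markers summed to 617 to 628 CPM on D3, against 2517 to 2523 on D2. The 6 NMP markers summed to 771 to 780 CPM on D3, against 165 to 173 on D2, where most was Sox2 (163 ± 5.45). In the later groups with the same label the NMP sum was lower, at 401 to 403 CPM on D6, 276 to 284 in D7G and 325 to 326 in D7. On D6, T stood at 41.7 ± 2.28 CPM, against 232 ± 1.33 on D3, and Wnt3a at 0.597 ± 0.206, against 19.7 ± 0.376. No marker of either list was at 0. The 14 trophectoderm markers, a cell type where Cdx2 is a key factor, summed to 400 to 511 CPM on D3, against 161 to 162 on D2. Most of this was Krt8 and Krt18, keratins shared by many epithelia (190 ± 35.7 and 174 ± 39.2 CPM on D3, against 35.5 ± 0.577 and 50.8 ± 0.831 on D2). Of the 13 trophectoderm markers tested, 11 rose and 2 fell (median 0.73), where 29.6% of all tested genes were called higher and 28.9% lower. Gata3 (1.07 ± 0.31) and Hand1 (1.04 ± 0.43) were among the rises. Elf5 and Hand1 stayed under 1 CPM in every group. Definitive endoderm markers (12) summed to 376 to 416 CPM on D3, against 488 to 504 on D2. Yet of the 11 tested, 7 rose and 1 fell (median 0.88). Over all tested genes, 29.6% were called higher and 28.9% lower. The marker that fell was Epcam, at 170 ± 9.20 CPM on D3, against 353 ± 5.44 on D2.

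In D7G against D7 the 9 fibroblast markers, relevant because the cells were once kept on feeders, summed to 1004 to 1170 CPM, against 331 to 354 CPM. Most of this was collagen RNA, of Col3a1 (659 ± 85.9 CPM, against 261 ± 15.4) and Col1a1 (241 ± 14.4, against 27.3 ± 1.93). Of the 8 tested, 7 rose and 0 fell, where 22.5% of all tested genes were called higher. Among the rises were Lum (15.2 ± 2.87 CPM, against 1.12 ± 0.695), Col1a2 (86.7 ± 3.00, against 16.4 ± 0.137) and Postn (17.9 ± 0.557, against 4.96 ± 1.36). Thy1 rose at a low level (1.11 ± 0.029 CPM, against 0.510 ± 0.125). Dcn did not pass (0.671 ± 0.018, against 0.524 ± 0.358). The 8 neuron markers summed to 279 to 286 CPM in D7G, against 156 to 159 in D7. Of these 8, 5 rose, 0 fell and 3 did not pass, where 22.5% of all tested genes were called higher. The largest part of the neuron sum was Tubb3 (129 ± 10.3 CPM in D7G, against 58.7 ± 2.60 in D7). The 6 NMP markers summed to 276 to 284 CPM in D7G, against 325 to 326 in D7. Most of the NMP sum was Sox2 (193 ± 0.564 CPM in D7G, against 232 ± 4.04 in D7). Of these 6 markers Sox2, Nkx1-2 and Fgf8 fell, T and Sp5 (0.27 ± 0.09) rose, and Wnt3a did not pass. Trophectoderm markers summed to 360 to 418 CPM in D7G, against 299 to 307 in D7, and endoderm markers to 274 to 331 CPM, against 209 to 212. No member of the fibroblast or neuron list had 0 counts in every library, and S100a4 stayed under 1 CPM in every group. The part of these cell types in the lower Cdx2 and Cdx4 levels of D7G was not tested.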

How the data were processed

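RNA from 10 libraries was analysed from 3 deposited tables. The authors deposited raw counts per gene symbol (52459 symbols, the main table), raw counts per Ensembl gene (55298 genes), and a table of log2 fold changes against D2 with a false discovery rate (an adjusted p-value) per gene. The tools named in the submitters' processing notes are limma, STAR, featureCounts 1.6.3 and HISAT2 2.1.0, with the build mm10; the role of each, the counting options and strand use are not given in the sources used here. Exon lengths came from the length column per the file headers.

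The deposited counts were fitted with edgeR 4.0.16 (R 4.3.3): TMM scaling, default filterByExpr, quasi-likelihood test, 1 coefficient per group over all 10 libraries, 5 residual degrees of freedom. P-values were adjusted over 18818 genes and called at under 0.05. The common dispersion was 0.00111. SEs derive from the fold change and F statistic, and the intervals of log2 fold changes from the fit's residual and prior degrees of freedom. The paralogue ratio had an exact permutation test. On simulated counts for D7G against D7, with 50 genes changed per size among 18231 genes fitted, 62% were recovered at 1.2-fold and 100% at 1.5-fold. Alternatives were DESeq2 1.42.0, RLE factors, library totals, 2 other filters, a fit of the compared pair alone, a replicate term, the second table, and each library left out in turn.

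The members and lists were chosen with earlier results of these data known. Named genes were the members; per list and comparison up to 4 called genes with the largest change and at least 1 CPM; the 5 genes most like each member, of which 1 is not reported here; and neighbours within 100 kb, of which a few are given. Fgf4, Tcf7l1, Sox2, Elf5, Hand1, S100a4, Col3a1, Thy1, Dcn and the neighbours given were picked after their values were seen.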

Additional observations from a re-analysis of the deposited data

How the results depend on the processing

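Every log2 fold change of Cdx1, Cdx2 and Cdx4 kept its direction and its side of the threshold in 270 of 270 repeats over 5 comparisons and 18 alternatives. Cdx1 in D7G against D7 ran from 0.04 to 0.14 (adjusted p = 0.128 to 0.758), Cdx2 from -0.81 to -0.72 and Cdx4 from -1.57 to -1.49. The widest range was that of Cdx1 in D3 against D2 (7.54 to 8.47). A term for the replicate number (replicate block) gave 0.11 for Cdx1 in D7G against D7 (adjusted p = 0.202) and changed no call of the 3 genes; the labels give only a shared number, so it is not read as a pairing. The Cdx1 over Cdx2 ratio passed with 5 counts added (exact permutation p = 0.0455), without either D2 library (0.00106 and 0.00317, and 0.00106 to 0.233 over all libraries left out) and without the D2 group (0.00952), but not with labels permuted within a replicate number (0.175).

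Genes called higher in D7 against D6 numbered 3853, and 2294 (without D7 replicate 2) to 3607 with a library left out. More genes were called lower than higher there in 9 of 18 alternatives, among them no filter (2892 higher, 3090 lower), at least 1 CPM in 2 libraries (3355, 3508) and the compared pair alone (3249, 3360). The balance turned in 0 of 18 for D3 against D2, 3 for D6 against D3, 2 for D7G against D7 and 7 for D7G against D6. Of the 9 Cdx-dependent genes, those called higher in D7 against D6 numbered 2, 4 with library totals and 1 in the second table; in D7G against D7 they numbered 5, 3 in the second table and 3 to 5 with a library left out. Those called lower there numbered 2, 1 with DESeq2 and 1 to 2 with a library left out. Caudal genes called higher in D7 against D6 numbered 2, and 1 in the second table; in D7G against D7 they numbered 5, and 3 to 5 with a library left out. The cause of these shifts was not tested. With a library left out, its group is assumed to vary like the others. Of the 5 genes most like each Cdx gene, 3 to 4 were still among the 5 with a pseudocount of 5 CPM and 0 to 2 with Spearman's rho. Counts of 13 to 25 limit the D2 ratios of Cdx1 and Cdx2.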

Other observations

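Cdx2 belongs to the ParaHox group with Gsx1, Gsx2 and Pdx1, and its neighbour at 24.96 kb, Pdx1, a factor of pancreas and duodenum, stayed far below it. Pdx1 had 25 and 20 counts on D3, against 7 and 3 on D2, and 4 and 1 in D7G, against 3 and 1 in D7. Gsx1, a factor of neural progenitors, ran the other way early on, with 10 and 7 counts on D3, against 49 and 52 on D2. In D7G against D7 Gsx1 rose, with 16 and 22 counts against 9 and 10 (log2 fold change 1.05 ± 0.37). Gsx2 had 2 to 18 counts in every library. It rose in D7 against D6, with 18 and 14 counts against 4 and 4 (1.87 ± 0.47), and did not pass in D7G against D7.

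Genes of the intestinal epithelium, where Cdx1 and Cdx2 act in the adult, stayed low while the Cdx genes were high. The 15 markers summed to 19.3 to 20.7 CPM on D3, against 18.7 to 19.8 on D2, and 10 of them were under 1 CPM in every group, with Alpi at 0 counts in all libraries. Most of the sum was Gpa33, at 11.5 CPM on D3, against 11.7 on D2. Their sum was 27.0 to 29.8 CPM in D7G, against 22.9 to 23.1 in D7. Hnf4a, a nuclear receptor of gut and liver endoderm, had 2.11 ± 0.466 CPM on D3, against 1.018 ± 0.190 on D2 (SD, n = 2).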
